A study of Mus musculus with 9 samples.

Results

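This report follows 90 genes for membrane carriers of sugars, sulfate, carboxylates and organic ions in mouse embryonic stem cells that were differentiating toward endoderm. They are the measured members of the solute carrier families Slc2a (12 genes), Slc5a (11), Slc13a (4), Slc16a (13), Slc22a (24), Slc26a (11) and Slco (15), out of 22180 genes measured. A gene was a member if a probe set carried its symbol alone in the platform annotation and the symbol was the family prefix followed by digits and at most 1 paralog letter. Slc13a2os and Slc2a4rg-ps, which share the prefix but are an antisense RNA and a pseudogene, were left out. Another 4 probe sets, annotated to a family gene together with another gene, were not analysed here.

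The cells carried a transgene in which the alpha-fetoprotein (Afp) promoter drives green fluorescent protein. They were grown as embryoid bodies on gelatin in serum-containing medium, and cells labelled as Afp-positive were isolated by flow cytometry on day 4, day 7 and day 21, with 3 arrays per day. All groups share the transgene and the medium; the labels name neither the line nor its strain, and the reporter selects any cell in which the Afp promoter is active. The 3 days were compared with one another, to describe how carrier transcripts differed between the cells sorted early and late. In such bulk samples, fewer cells of a type and less RNA per cell cannot be told apart.

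Carriers of the solute carrier families set which small molecules an epithelium takes up from its lumen and passes on. Slc2a proteins let glucose and other hexoses through down their gradient, while Slc5a and Slc13a proteins pull sugars, vitamins, sulfate or di- and tricarboxylates into cells together with sodium. Slc16a proteins carry lactate, pyruvate and related monocarboxylates, Slc26a proteins exchange anions such as sulfate, chloride and oxalate, and Slc22a and Slco proteins move organic ions, among them carnitine, bile acids, prostaglandins and thyroid hormones. The visceral endoderm of the yolk sac nourishes the early embryo through such carriers before the placenta takes over, and hepatocytes use some of the same families and others to clear blood.

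The arrays of a day correlated at 0.984 to 0.991 across genes, which are not independent replicates, and the median signal was 5.88 to 5.98 on every array. Afp lay below the background level at day 4 (log2 signal 5.72 ± 0.18, mean ± SD, n = 3) and above it at day 7 (10.60 ± 0.07) and day 21 (13.07 ± 0.11), so the transcript of the sorting gene was not detected above background in the day 4 cells. Background is the 95th percentile of olfactory receptor genes, which are silent in most cells; it was 6.05, 6.03 and 6.0 on the 3 days. Of 8 visceral endoderm markers, 5 were above it at day 4 and 8 at days 7 and 21, and the array means of the list ran from 6.61 to 6.71, from 9.58 to 9.62 and from 8.88 to 8.97. Of 7 measured hepatocyte markers, 1, 1 and 3 were above it; Alb was among the 3 at day 21, whereas Serpina1a, Tat, Cyp3a11 and F9 stayed below. Mesenchyme markers averaged 6.63 to 6.69, 5.99 to 6.16 and 8.72 to 9.61 per array, and markers of other epithelia 5.84 to 6.0, 6.13 to 6.36 and 9.68 to 9.80. Pluripotent markers averaged 6.94 to 7.34, 6.57 to 6.69 and 5.97 to 6.1, with 6, 5 and 3 of 8 above background. Neural markers averaged 6.78 to 6.94, 6.44 to 6.54 and 6.2 to 6.38, with 6, 6 and 5 of 8 above background. Of 8 endothelial markers, 3, 3 and 4 were above background, and of 6 measured erythroid markers 1 was on each day. Leukocyte markers averaged 5.48 to 5.61, 5.73 to 5.78 and 6.42 to 6.58; 1, 1 and 3 of 8 were above background. Cd68 was above it on all days (9.36 ± 0.12 at day 21), and Cd14 and Csf1r rose to 8.82 ± 0.29 and 7.42 ± 0.18 by day 21 (adjusted p = 1.01e-06 and 3.27e-06 against day 7), while Ptprc, Tyrobp, Lyz2, Fcer1g and Itgam were below it on all days. Muscle markers averaged 6.68 to 6.79, 7.48 to 7.53 and 6.87 to 7.01, with 6, 6 and 7 of 8 above background. To day 7, 3 of them rose and 0 fell, and 0 rose and 4 fell from day 7 to day 21; Tnnc1, a troponin of heart and slow muscle, rose 9.26-fold and fell 5.57-fold (adjusted p = 5.11e-06 and 1.73e-05). The part of these cell types in the results below was not tested.

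Of the 90 carriers, 28 were above background at day 4, 33 at day 7 and 37 at day 21; 48 were above it on no day. On at least 1 day 42 were above it, 46.7% of the carriers against 59.9% of all genes. The Slc16a family had most of its members above background (11 of 13) and the Slc5a family few (3 of 11). In the silent part were the 6 Slco1 genes, among them Slco1b2, a hepatocyte uptake carrier for bilirubin and some bile acids, with signals from 3.37 to 5.57 over all arrays. The 3 testis-type Slco6 genes (2.96 to 4.26) and the organic anion carriers Slc22a19 and Slc22a26 to Slc22a30 (2.20 to 5.20) were also below background throughout. A call for a gene in this range is a difference between dim signals; this holds for 6 of the 36 carriers called in any comparison, namely Slc13a5, Slc22a7, Slc22a19, Slc22a30, Slc26a9 and Slco1c1. Conversely, 12 carriers were above background on at least 1 day and called in no comparison, among them Slc2a6, Slc2a10, Slc22a12, Slc22a13 and Slc26a11.

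From day 4 to day 7 carriers for sulfate, hexoses, lactate and organic anions rose, as did 8 of 8 visceral endoderm and 3 of 8 muscle markers, and from day 7 to day 21 carriers with a day 7 maximum, among them Slc13a4, Slco4c1 and Slc16a1, fell while others, with the glucose carrier Slc2a2 and the prostaglandin carrier Slco2a1, rose. At day 7 against day 4, 16 of 90 carriers were called higher (17.8%, against 6.98% of all genes) and 4 lower (4.44%, against 6.47%). A change of at least 2-fold was called upward for 8 of them (8.89%, against 2.05% of all genes) and downward for 1 (1.11%, against 1.36%). The median log2 change of the carriers was 0.07, beside -0.01 for all genes, and 70 of the 90 were not called. The 90 include the 48 carriers above background on no day, for which a dim signal can hide a change. At day 21 against day 7, 17 were lower (18.9%, against 10.7%) and 9 higher (10%, against 12.4%), with a median of -0.10 beside -0.03; at least 2-fold falls were called for 6 (6.67%, against 1.80%) and such rises for 5 (5.56%, against 4.64%). These comparisons share the day 7 arrays, so their counts are not independent. At day 21 against day 4, 15 were higher (16.7%, against 15.0%) and 9 lower (10%, against 14.1%). At least 2-fold rises were called for 5 (5.56%, against 5.44%) and such falls for 3 (3.33%, against 2.57%), so these shares were close to those of all genes. Fewer falls in this last comparison were called in some other fits, down to 5, as when only the arrays of both days were fitted, or when array 1 or 2 of day 4 or array 1 of day 21 was left out. Its rises also went down to 10, as without array 1 of day 21 (11.1%, against 13.5% of all genes). Without array 1 of day 4, 2 falls rather than 4 were called between days 4 and 7.

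**Figure D1:**
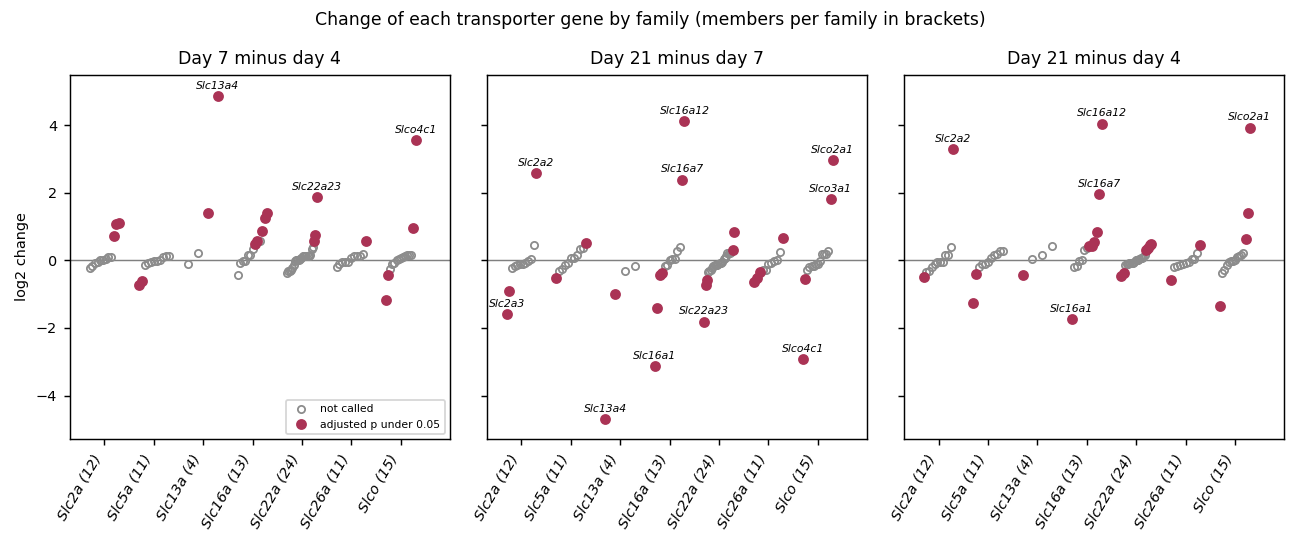
The log2 change of each of the 90 carriers (y axis) by family (x axis) in the 3 comparisons; filled points have a limma adjusted p under 0.05. A few genes per family stand far from 0, such as Slc13a4 at 4.86 and -4.70, while most lie near it.

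To show the regulatory sequence next to the genes that moved most, the 250 bases before the start of 6 genes are given 5′ to 3′ from RefSeq (build GRCm38.p6); capitals mark a motif match. The first 3 were highest at day 7 and the other 3 at day 21.
Slc13a4, chr6:35308127-35308376, minus strand: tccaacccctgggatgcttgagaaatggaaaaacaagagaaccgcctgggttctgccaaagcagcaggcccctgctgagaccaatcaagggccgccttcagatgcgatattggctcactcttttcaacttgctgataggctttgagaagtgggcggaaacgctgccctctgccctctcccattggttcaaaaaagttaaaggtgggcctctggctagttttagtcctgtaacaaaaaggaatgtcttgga
Slco4c1, chr1:96872172-96872421, minus strand: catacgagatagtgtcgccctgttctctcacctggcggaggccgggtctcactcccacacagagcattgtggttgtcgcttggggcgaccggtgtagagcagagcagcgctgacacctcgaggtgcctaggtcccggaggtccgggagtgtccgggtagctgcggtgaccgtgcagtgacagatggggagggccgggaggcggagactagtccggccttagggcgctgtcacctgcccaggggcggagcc
Slc16a1, chr3:104638414-104638663, plus strand: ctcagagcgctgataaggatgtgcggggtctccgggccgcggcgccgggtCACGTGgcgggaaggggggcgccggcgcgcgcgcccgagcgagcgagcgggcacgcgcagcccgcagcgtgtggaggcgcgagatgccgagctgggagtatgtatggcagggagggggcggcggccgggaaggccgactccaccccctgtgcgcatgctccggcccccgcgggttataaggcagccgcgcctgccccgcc
Slc2a2, chr3:28697653-28697902, plus strand: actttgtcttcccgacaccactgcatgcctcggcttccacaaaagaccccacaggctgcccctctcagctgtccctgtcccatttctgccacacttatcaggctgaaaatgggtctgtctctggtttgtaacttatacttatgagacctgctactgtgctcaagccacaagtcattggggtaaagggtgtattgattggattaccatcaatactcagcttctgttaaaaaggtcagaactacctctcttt
Slco2a1, chr9:103008237-103008486, plus strand: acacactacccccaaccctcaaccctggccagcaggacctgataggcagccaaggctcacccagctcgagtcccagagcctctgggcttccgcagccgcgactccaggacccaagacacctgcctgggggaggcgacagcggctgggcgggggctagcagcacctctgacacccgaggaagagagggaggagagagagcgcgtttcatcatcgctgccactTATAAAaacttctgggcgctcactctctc
Slc16a12, chr19:34747329-34747578, minus strand: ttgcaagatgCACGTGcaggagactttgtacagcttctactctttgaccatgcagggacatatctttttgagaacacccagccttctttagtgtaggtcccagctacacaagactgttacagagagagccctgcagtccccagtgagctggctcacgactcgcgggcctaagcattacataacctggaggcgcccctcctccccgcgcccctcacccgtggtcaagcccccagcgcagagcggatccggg
Motifs were searched on both strands in windows of 300 bases, which add 50 bases after the start. The letters TATAAA, the core of a TATA box, were found in Slco2a1, 29 bases before the start, and CACGTG, an E-box, in Slc16a1 (200 bases before) and Slc16a12 (240 bases before). A GATA site was searched as AGATAA, a hypoxia element as TACGTG and an HNF4 site as CAAAGTCCA. An HNF1 site was searched as its palindromic consensus with 1 free base in the middle. Other forms of these sites were not searched, and the letters ACGTG of the hypoxia form also lie within the E-box CACGTG. The windows of Slc13a4, Slco4c1 and Slc2a2 held none of the 6 motifs in the forms searched, which does not show that they lack such sites. A window was listed for 72 of the 90 carriers, with some genes having several.

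The TATA letters were found for 16 of these 72 (22.2%) and in 13.6% of all 32851 windows, and the E-box for 8 (11.1%) and in 7.15%. The GATA letters were found for 9 (12.5%) and in 11.2%, and the HNF1 motif for 1 (Slc26a3; 1.39%) and in 0.0609%. The HNF4 letters and the hypoxia letters TACGTG were found for 0 carriers and in 0.475% and 3.23% of all windows. A carrier with several windows counted if any of them matched, which can raise its share above a share of windows. Base composition differed between the windows of detected and undetected carriers. The 31 carriers above background on at least 1 day had a median GC content of 60.5% and 16 CpG dinucleotides per window, and the 41 others 48.3% and 3, beside 52.7% and 7 over all windows. Slc2a2 (48.0% GC, 2 CpG) and Slc13a4 (48.7% GC, 6 CpG), both above background on at least 2 days, were nearer to the second group, whereas Slc16a1 had 73.7% GC and 42 CpG. These are descriptions of the letters in these windows, with no test.

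Among sulfate and carboxylate carriers, Slc13a4 was the carrier with the largest change of the 90 in each of the comparisons that involve day 7. Slc13a4 (probe set 17465805) encodes a sodium-coupled sulfate carrier. Its log2 signal was 7.34, 7.78 and 7.52 on the day 4 arrays, 12.42, 12.35 and 12.43 on the day 7 arrays and 7.87, 7.57 and 7.66 on the day 21 arrays. All day 7 arrays were far above all others, and the day 4 and day 21 arrays overlapped. It rose 29.0-fold by day 7 (log2 change 4.86 ± 0.13 SE, limma adjusted p = 1.06e-08) and fell 26.0-fold by day 21 (-4.70 ± 0.13, adjusted p = 7.90e-09). The change from day 4 to day 21 was 0.16 ± 0.13 (adjusted p = 0.433).

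Slc13a3 (17394461), which carries succinate and other dicarboxylates, had the same order of days at a smaller size. It read 6.34, 6.17 and 6.31 at day 4, 7.43, 7.83 and 7.77 at day 7 and 6.93, 6.42 and 6.74 at day 21. The groups of adjacent days did not overlap, and it rose 2.64-fold (adjusted p = 1.12e-04) and then fell 1.97-fold (adjusted p = 7.59e-04). The kidney and gut sulfate carrier Slc13a1 and the citrate carrier Slc13a5 were below background on all days. Slc26a2, a sulfate exchanger present in many tissues, stayed between 8.32 and 8.78 on all 9 arrays, with log2 changes of 0.14 ± 0.09 to day 7 and -0.34 ± 0.09 from day 7 to day 21. The latter was called (adjusted p = 0.0234), but not without array 1 or 3 of day 7 (0.0890, 0.0540) or array 1 or 2 of day 21 (0.0577, 0.050). Slc26a6, an exchanger of chloride, oxalate and bicarbonate, rose by 0.56 ± 0.10 (adjusted p = 0.00404) and fell by 0.53 on the log2 scale (adjusted p = 0.00340). It read 6.02, 6.58 and 6.05 on average, below background at day 4 and just above it at day 21. Slc26a10 fell by 0.63 on the log2 scale between days 7 and 21 (adjusted p = 0.00420). The other 8 Slc26a genes included Slc26a3, Slc26a4 and Slc26a7, which are anion exchangers of gut, inner ear and stomach; none of these 3 was called or above background.

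Once inside the cell, sulfate is activated to a donor by the Papss enzymes, and Slc35b2 and Slc35b3 carry the donor into the Golgi. Papss1 rose from 7.29 ± 0.17 at day 4 to 7.95 ± 0.13 at day 7 (adjusted p = 0.00671) and read 8.30 ± 0.18 at day 21. Papss2 read 5.92 ± 0.25, 5.99 ± 0.19 and 7.06 ± 0.25, and rose by 1.07 ± 0.17 between days 7 and 21 (adjusted p = 8.72e-04). Neither had the single high day of Slc13a4. Slc35b3 rose by 0.50 ± 0.13 to day 7 (adjusted p = 0.0291), while Slc35b2 was not called in any comparison. Of 31 measured sulfotransferases, which place sulfate on proteins, glycans and small molecules, 2 rose and 3 fell between days 4 and 7 (median log2 change -0.06, beside -0.01 for all genes), or 6.45% and 9.68% beside 6.98% and 6.47% of all genes. Gal3st1, which makes sulfatide, rose by 1.23 ± 0.15 (adjusted p = 2.78e-04), and the chondroitin sulfotransferases Chst7 and Chst11 changed by -2.16 ± 0.17 (1.22e-05) and -0.86 ± 0.15 (0.00345). Gal3st1 at day 4 (5.96) and Chst7 at day 7 (6.03) were not above background. Between days 7 and 21, 7 rose and 4 fell (median 0.06, beside -0.03), or 22.6% and 12.9% beside 12.4% and 10.7%. The heparan sulfotransferases Hs6st1 and Hs3st1 rose by 1.13 ± 0.09 (1.17e-05) and 1.13 ± 0.20 (0.00172). Hs6st1 read 8.10 at day 7 and 9.23 at day 21, whereas Hs3st1 rose from 5.19, below background, to 6.33.

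The sugar carriers divided into a pair with a day 7 maximum and 1 gene that was highest at day 21. Slc2a1 (17417844), the GLUT1 glucose carrier of most growing cells, read 12.08, 11.66 and 11.90 at day 4, 12.95, 12.94 and 13.00 at day 7 and 12, 12.08 and 12.08 at day 21. The day 7 arrays lay above all others, and days 4 and 21 overlapped. It rose 2.11-fold (adjusted p = 1.06e-04) and fell 1.88-fold (adjusted p = 1.98e-04). A second probe set of this gene (17429307) was dim, at 5.87, 6.04 and 5.81 on the 3 days, and averaging both lowers the changes to 0.63 and -0.57. Slc2a3 (17470597), GLUT3, a high-affinity glucose carrier of embryo and neurons, read 11.45, 10.97 and 11.22, then 12.40, 12.30 and 12.28, then 10.66, 10.87 and 10.67. It rose 2.17-fold (adjusted p = 1.85e-04) and fell 3.02-fold (adjusted p = 8.87e-06). No group of Slc2a3 arrays overlapped the next day's. Between days 4 and 21 its change of -0.48 ± 0.13 was called (adjusted p = 0.0162), though not without array 1 of day 4 (0.0600) or array 1 of day 21 (0.0534).

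Slc2a2 (17396479) encodes GLUT2, the low-affinity glucose carrier of liver, pancreatic beta cells, gut and yolk sac. It read 5.72, 5.60 and 5.32 at day 4, 6.09, 6.40 and 6.29 at day 7 and 8.69, 8.95 and 8.88 at day 21, with no overlap between days. The day 4 mean was below background and the day 7 mean just above it, so these changes start from a floor of array signal. It rose by 0.71 ± 0.13 on the log2 scale to day 7 (adjusted p = 0.00473) and a further 5.98-fold to day 21 (2.58 ± 0.13, adjusted p = 3.68e-07). Between days 7 and 21, 3 of 7 measured hepatocyte markers rose and 4 did not pass. Of 8 mesenchyme markers 7 rose, and of 8 markers of other epithelia 7 rose and 1 fell. The insulin-responsive carrier Slc2a4 and the intracellular Slc2a8 were above background on all days and not called, with signals from 6.15 to 7.01 and from 7.51 to 8.07. The fructose carrier Slc2a5 was below background on all days. Of the 12 Slc2a genes, 3 rose and 0 fell to day 7, when 6.98% of all genes rose and 6.47% fell, and 1 rose and 2 fell between days 7 and 21, when 12.4% and 10.7% did.

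None of the measured sodium-coupled sugar carriers was above background. Slc5a3 and Slc5a10, whose probe sets were annotated to another gene as well, were not analysed. Slc5a1, the SGLT1 carrier that absorbs glucose in gut, stayed between 4.57 and 5.24 on the 9 arrays, and the kidney glucose carrier Slc5a2 was also below background. The 3 members of this family above background on any day carry other solutes. Slc5a7 (17346018), the choline carrier of cholinergic neurons, read 6.21, 6.16 and 6.41 at day 4, 5.54, 5.57 and 5.47 at day 7 and 4.88, 5.19 and 4.97 at day 21. It was above background only at day 4 and was lower on each later day without overlap, with a log2 change of -1.25 ± 0.11 from day 4 to day 21 (adjusted p = 1.53e-05). Counted down to the background level, this fall was at least 1.2-fold. Slc5a6, which carries biotin and pantothenate, read 6.95 ± 0.14, 6.80 ± 0.03 and 6.56 ± 0.16; its change of -0.39 ± 0.11 from day 4 to day 21 (adjusted p = 0.0235) was not called without array 2 or 3 of day 4 (0.0887, 0.0774) or array 1 or 2 of day 21 (0.0840, 0.0664), nor from the arrays of both days alone (0.0521). Slc5a5, the iodide carrier, changed by -0.62 ± 0.15 and then 0.51 ± 0.15 (adjusted p = 0.0217 and 0.0359). The former call was lost without array 1 or 3 of day 4 (0.0683, 0.0873) or array 1 or 2 of day 7 (0.0799, 0.0505) and in the fit of both days alone (0.0528), and the latter with quantile normalization again (0.0617) or without any 1 of array 1 of day 4, arrays 1 and 2 of day 7 and the 3 arrays of day 21 (0.0526 to 0.128).

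**Figure D2:**
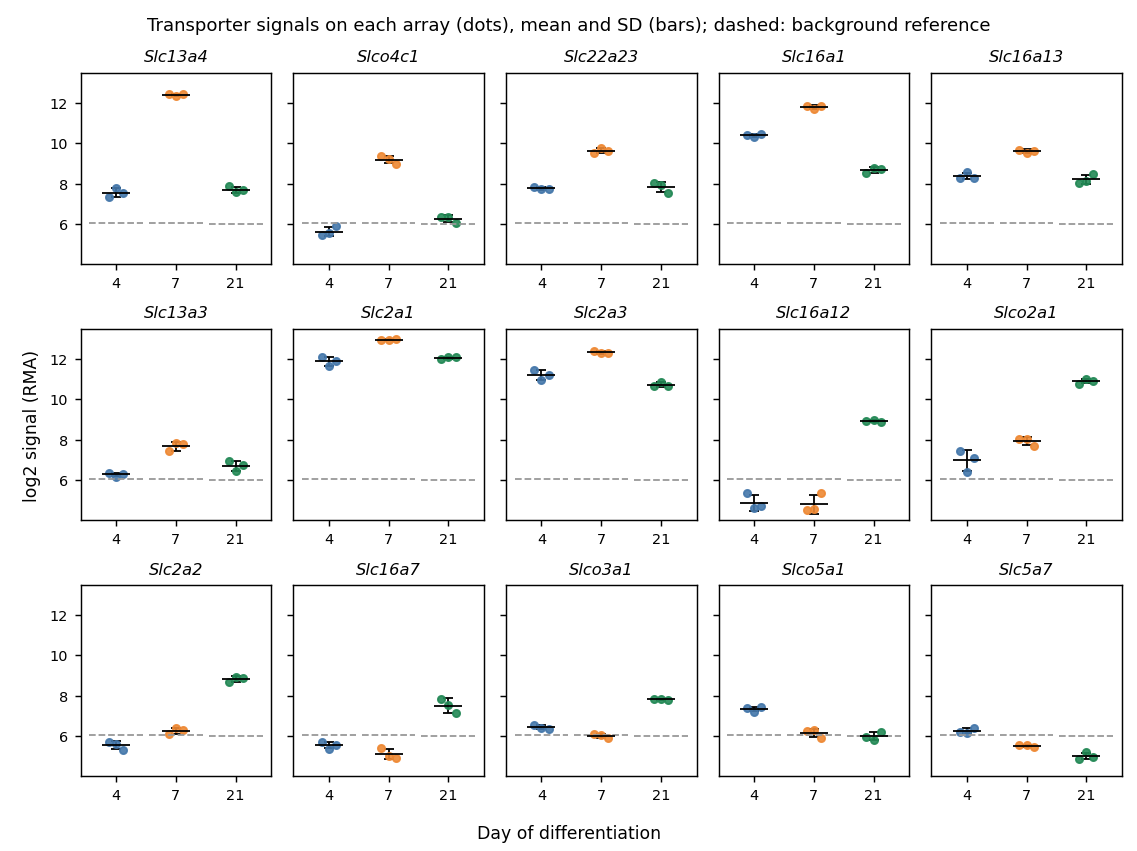
The log2 signal (y axis) of 15 carriers on each array by day (x axis); dots are arrays, bars the mean and SD of 3 arrays, and dashed lines the background level. The top row and Slc13a3, Slc2a1 and Slc2a3 are highest at day 7, and Slc16a12, Slco2a1, Slc2a2, Slc16a7 and Slco3a1 at day 21.

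Genes that handle glucose and its carriers moved in part with them. Txnip, which binds GLUT1 and promotes its removal from the surface, read 10.55 ± 0.04, 10.95 ± 0.02 and 12.37 ± 0.05, and rose by 1.42 ± 0.09 between days 7 and 21 (adjusted p = 1.16e-06). Its relative Arrdc4 rose by 0.97 ± 0.14 in that interval (adjusted p = 5.12e-04). G6pc3, a glucose-6-phosphatase of many tissues, rose by 0.74 ± 0.11 to day 7 (adjusted p = 8.65e-04), whereas the liver and kidney form G6pc was below background on all days (5.43 ± 0.26, 5.38 ± 0.18 and 5.27 ± 0.38). The hexokinase Hk2 stayed between 6.88 and 7.28 and was not called. Atp1b1, a subunit of the sodium pump that maintains the gradient used by Slc5a and Slc13a carriers, rose from 8.80 ± 0.29 to 11.72 ± 0.03 by day 7 (7.57-fold, adjusted p = 4.33e-07). It read 11.89 ± 0.09 at day 21, so it did not return as Slc13a4 did. The other measured pump subunits did not rise with it. From day 4 to day 21 Atp1b2 and Atp1b3 changed by -0.49 and -0.67 on the log2 scale (adjusted p = 0.0253 and 0.00591), and Atp1a4 was below background on all days. Of 35 measured partner genes, 10 rose and 2 fell to day 7 (median log2 change 0.15, beside -0.01 for all genes), or 28.6% and 5.71% beside 6.98% and 6.47% of all genes. Between days 7 and 21, 7 rose and 6 fell (median -0.01, beside -0.03), or 20% and 17.1% beside 12.4% and 10.7%.

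Among the monocarboxylate carriers, Slc16a1 was highest at day 7 and lowest at day 21, while Slc16a7 and Slc16a12 were highest at day 21. Slc16a1 (17401335) encodes MCT1, which carries lactate, pyruvate and ketone bodies. It read 10.43, 10.32 and 10.44 at day 4, 11.84, 11.68 and 11.87 at day 7 and 8.52, 8.78 and 8.71 at day 21, with no overlap. It rose 2.64-fold (adjusted p = 9.83e-06) and then fell 8.74-fold (log2 change -3.13 ± 0.11, adjusted p = 2.65e-08), to 3.31-fold below day 4 (adjusted p = 1.00e-06). Slc16a3 (17259534), MCT4, the lactate exporter of glycolytic cells, rose from 7.56 ± 0.09 to 8.42 ± 0.14 (adjusted p = 6.09e-04) and read 8.0 ± 0.16 at day 21. Its fall of 0.42 on the log2 scale from day 7 to day 21 was called (adjusted p = 0.0257) but not without array 1 or 3 of day 7 (0.0946, 0.0784) or array 1 or 2 of day 21 (0.0709, 0.0931), nor from the arrays of both days alone (0.0528).

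Slc16a13 (17265156) rose from 8.28, 8.57 and 8.29 to 9.69, 9.52 and 9.64 and returned to 8.04, 8.11 and 8.48, changes of 1.24 ± 0.14 and -1.41 ± 0.14 (adjusted p = 1.40e-04 and 3.32e-05). Its neighbour in RefSeq gene order, Slc16a11, rose by 0.49 ± 0.11 to day 7 (adjusted p = 0.0149) and changed by -0.18 ± 0.11 afterwards, which did not pass. Slc16a11 read 5.68, 6.16 and 5.99 on average and was above background at day 7 alone. Slc16a7 (17245648), MCT2, with high affinity for lactate and pyruvate, read 5.69, 5.38 and 5.55, then 5.40, 5.02 and 4.93, then 7.84, 7.56 and 7.12. Only the day 21 arrays were above background, and the fitted rise from day 7 was 5.24-fold (adjusted p = 7.75e-06), or at least 2.79-fold from the background level. Slc16a12 (17364139), MCT12, which carries creatine, read 5.33, 4.60 and 4.69, then 4.52, 4.54 and 5.33, then 8.93, 8.98 and 8.86. The fitted rise was 17.5-fold over a day 7 signal below background (4.13 ± 0.23, adjusted p = 7.38e-07), and counted from the background level it was at least 7.41-fold.

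Slc16a9, a carnitine carrier, rose by 0.84 ± 0.20 from day 4 to day 21 (adjusted p = 0.00882). Its day 4 mean was below background, and counted from that level the rise was at least 1.31-fold. The mean of the mesenchyme markers on the day 21 arrays was 9.61, 9.15 and 8.72. Slc16a7 had the same order of arrays, as did the brighter probe set of Slc16a9 (6.98, 6.33 and 6.02). The other probe set of Slc16a9 read 5.04, 5.51 and 5.26, a different order. These orders of 3 arrays were picked after the values were seen, and a link to mesenchyme was not tested. The day 21 arrays of Slc16a12 lay between 8.86 and 8.98. With both probe sets of Slc16a9 averaged, its change was 0.41. Slc16a10, a carrier of aromatic amino acids, rose by 0.56 ± 0.13 to day 7 (adjusted p = 0.0160). Slc16a6, a carrier of ketone bodies, read 6.97 ± 0.02, 7.13 ± 0.17 and 6.77 ± 0.11, with a fall of 0.36 on the log2 scale from day 7 to day 21 (adjusted p = 0.0370). Bsg, the chaperone that brings MCT1 and MCT4 to the surface, rose in both intervals, from 10.85 ± 0.08 to 11.25 ± 0.10 (adjusted p = 0.0201) and 11.70 ± 0.05 (adjusted p = 0.00580). Emb, the preferred chaperone of MCT2, read 12.27 ± 0.02, 12.98 ± 0.15 and 10.13 ± 0.13, and fell 7.20-fold between days 7 and 21 (adjusted p = 5.71e-08). In the second interval each chaperone moved against a carrier it serves, Bsg rising where Slc16a1 fell and Emb falling where Slc16a7 rose. These pairs were picked after the values were seen, and Emb changed in the same directions as Slc16a1 in both intervals. Ldha, the lactate dehydrogenase subunit of glycolytic cells, rose by 0.50 ± 0.10 (adjusted p = 0.00810) and fell by 0.68 on the log2 scale (adjusted p = 7.16e-04), and the heart-type subunit Ldhb changed by -0.58 ± 0.12 (0.0107) and 0.47 ± 0.12 (0.0202).

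**Figure D3:**
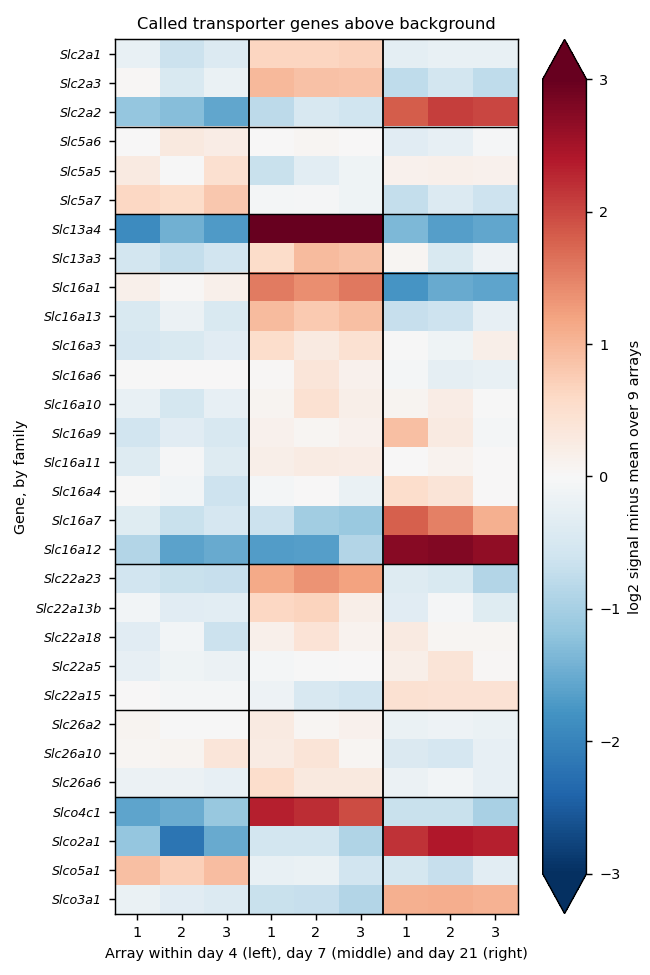
The log2 signal of 30 carriers on each of 9 arrays (x axis, 3 per day) minus the gene's mean over the arrays (colour, truncated at 3 in either direction), by family (y axis), for carriers called in any comparison and above background on any day. Slc13a4, Slc16a1 and Slco4c1 are strongest in the middle block, and Slc2a2, Slc16a12 and Slco2a1 in the right block.

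Of the organic anion carriers of the Slco family, Slco4c1 was highest at day 7, Slco2a1 and Slco3a1 were highest at day 21, and Slco5a1 was highest at day 4. Slco4c1 (17225837) encodes a kidney carrier of cardiac glycosides and thyroid hormones. It read 5.44, 5.53 and 5.87 at day 4, 9.35, 9.23 and 8.98 at day 7 and 6.35, 6.35 and 6.05 at day 21. Day 7 was far above both other days, and day 4 lay below background. Its fitted rise was 11.9-fold (3.57 ± 0.15, adjusted p = 1.93e-07), or at least 8.82-fold from the background level, and it fell 7.64-fold (-2.93 ± 0.15, adjusted p = 3.19e-07), ending 0.64 ± 0.15 above day 4 on the log2 scale (adjusted p = 0.00767).

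Slco2a1 (17520905), the carrier that takes up prostaglandins for their degradation, read 7.45, 6.41 and 7.09 at day 4, 8.05, 8.05 and 7.71 at day 7 and 10.78, 11.01 and 10.93 at day 21. The days did not overlap, although the day 4 arrays were widely spread. Its rise to day 7, 0.95 ± 0.22, was called (adjusted p = 0.0162) but not without array 1 or 2 of day 7 (0.0649, 0.0596). The rise from day 7 to day 21 was 7.85-fold (2.97 ± 0.22, adjusted p = 5.42e-06). Slco3a1 (17492196), another carrier of prostaglandins and thyroxine, read 6.55, 6.41 and 6.35, then 6.08, 6.07 and 5.89, then 7.83, 7.85 and 7.80. It was below background at day 7 and rose 3.51-fold by day 21 (adjusted p = 4.93e-07). Its earlier change of -0.42 ± 0.10 (adjusted p = 0.0157) was not called without array 1 of day 4 (0.0633) or array 3 of day 7 (0.0661). Slco5a1 (17221288), whose substrate is not settled, read 7.39, 7.21 and 7.43, then 6.27, 6.29 and 5.91, then 5.97, 5.80 and 6.19. It fell 2.27-fold to day 7 (adjusted p = 2.30e-04), and the later change of -0.17 ± 0.14 did not pass. Slco2b1, a carrier of steroid sulfates, had means of 5.90, 5.96 and 5.77 and was not called.

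Most Slc22a genes, which carry organic cations, anions and zwitterions in kidney and liver, were below background on every day (15 of 24). Slc22a23 (17291787), an orphan member, stood apart, with 7.84, 7.73 and 7.71 at day 4, 9.53, 9.75 and 9.61 at day 7 and 8.01, 7.94 and 7.52 at day 21. The day 7 arrays were above all others and days 4 and 21 overlapped. It rose 3.66-fold (adjusted p = 7.32e-06) and fell 3.50-fold (adjusted p = 5.26e-06). Slc22a13b changed by 0.74 ± 0.15 and -0.74 ± 0.15 (adjusted p = 0.00885 and 0.00521) and was above background at day 7 alone, at 6.60, 6.66 and 6.16; it is a close copy of Slc22a13, so which of the 2 gave the signal is uncertain. Slc22a13 itself read 6.70, 6.83 and 6.61 on average and was not called. Slc22a15 rose by 0.84 ± 0.12 between days 7 and 21 (adjusted p = 3.95e-04), with day 21 arrays at 6.48, 6.44 and 6.44, and was below background before.

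Slc22a5, the high-affinity carnitine carrier, read 6.23 ± 0.05, 6.39 ± 0.05 and 6.61 ± 0.17. Its change of 0.38 ± 0.11 from day 4 to day 21 was called (adjusted p = 0.0196) but not without array 1 of day 4 (0.0647) or array 2 of day 21 (0.0713). Slc22a18, a gene of an imprinted cluster, read 5.88 ± 0.27, 6.45 ± 0.17 and 6.36 ± 0.12. Its call for day 7 against day 4 (0.57 ± 0.15, adjusted p = 0.0274) was lost without array 1 or 3 of day 4 (0.0701, 0.0947) or array 1 or 2 of day 7 (0.0609, 0.0991), and when only the arrays of both days were fitted (0.0523). Slc22a17, a receptor for lipocalin that belongs to the family by sequence, was above background on all days (7.25 to 7.93) and not called. The kidney anion carriers Slc22a6 and Slc22a8 and the cation carrier Slc22a2 were below background. Slc9a3r1, a scaffold that anchors such carriers under the apical membrane, read 9.57, 9.53 and 9.65, then 10.85, 10.66 and 10.79, then 9.51, 9.51 and 9.71. It rose 2.27-fold (adjusted p = 2.54e-05) and fell 2.28-fold (adjusted p = 1.40e-05), the order of days seen for Slc22a23 and Slc13a4.

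**Figure D4:**
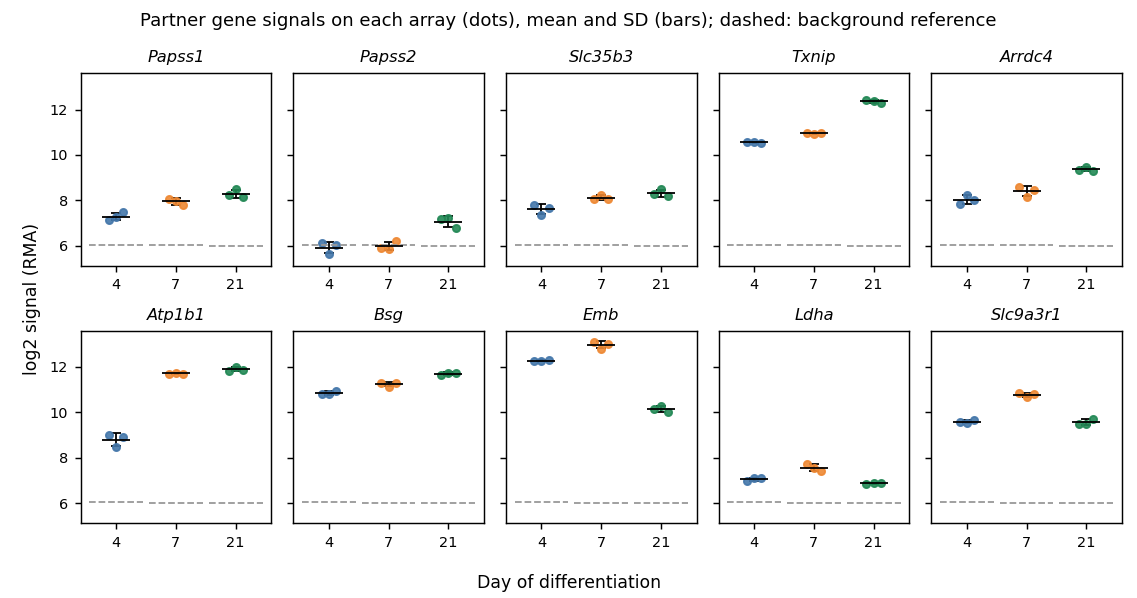
The log2 signal (y axis) of 10 genes that work with the carriers, on each array by day (x axis); dots are arrays, bars the mean and SD of 3 arrays, and dashed lines the background level. Slc9a3r1 is highest at day 7, Emb is lowest at day 21 and Atp1b1 stays high after its rise to day 7.

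Between the ends of the series, 5 carriers that were highest at day 21 differed upward by at least 2-fold. Both days were above background for Slco2a1, 15.2-fold higher at day 21 than at day 4 (adjusted p = 6.00e-07), and Slco3a1, 2.62-fold higher (2.72e-06). The day 4 means of Slc16a12, Slc2a2 and Slc16a7 were below background, so their fitted folds of 16.6 (adjusted p = 7.05e-07), 9.80 (6.12e-08) and 3.92 (2.37e-05) have no rank. From the background level these were at least 7.31-fold, 6.92-fold and 2.75-fold. Called falls of at least 2-fold were those of Slc16a1 (3.31-fold), Slco5a1 (2.56-fold, adjusted p = 4.05e-05) and Slc5a7 (2.37-fold), the last 2 of which ended below background. Counted down to the background level, the fall was at least 2.53-fold for Slco5a1 but at least 1.2-fold only for Slc5a7. Slc13a4, Slc13a3, Slc22a23, Slc16a13 and Slc2a1, all with day 7 maxima, were not called between days 4 and 21, with changes of 0.16 ± 0.13, 0.42 ± 0.15, 0.06 ± 0.13, -0.17 ± 0.14 and 0.17 ± 0.11. A change that does not pass is not shown to be 0.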

How the data were processed

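Signals were read from 1 table of 34365 probe sets on 9 arrays. Per the submitters' processing notes, the authors' tools were RMA and Affymetrix Expression Console, and the deposited values are log2 signals; their versions and build are not stated in the labels. RMA brings arrays to a common distribution, so a shift shared by all transcripts is largely removed, and labelling of picogram RNA inputs can distort ratios of dim transcripts. There is no sequencing depth here, and 3 arrays a day limit the precision. Probe sets with 1 symbol in the platform annotation were kept (23521), and the brightest stood for each of 22180 genes.

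With limma 3.58.1 (R 4.3.3), lmFit and eBayes gave 1 mean for each day from the 9 arrays together. P-values are two-sided and carry Benjamini-Hochberg adjustment over 22180 genes; calls needed an adjusted p under 0.05. The fit was tested on simulated data. SE is that of the fitted change and SD the spread of 3 arrays. No label says that the arrays of a day came from separate cultures; p-values then reflect the spread among these arrays alone, and that spread may be technical. Background was the 95th percentile of 1088 olfactory receptor genes on each array (5.87 to 6.16), averaged within a day. The members and lists were chosen with earlier results of these data known. The members named are up to 12 rises and 12 falls per comparison, the brightest of each family and 13 measured anchors; list genes named are up to 3 with the largest changes per comparison, and other list genes, Slc16a6, Slc16a10, Slc16a11, Slc26a6, Slc22a13 and members given as dim or not called were chosen after their values were seen. Alternatives were another probe set rule, a filter on dim genes, renormalization, median centring, an intensity trend, array weights, a replicate block, fits of 2 days only, and leaving out each array.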

Additional observations from a re-analysis of the deposited data

How the results depend on the processing

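For the 35 named carriers, 17 alternatives per comparison gave 1758 values: 1615 kept their side of the threshold, 121 lost a call, 22 gained one and 0 called values changed sign, while 16 of 679 uncalled values did. Of named calls, 13 of 17 (day 7 against day 4), 18 of 24 (day 21 against day 7) and 12 of 23 (day 21 against day 4) were kept under every alternative. Leaving out each array gave 2 to 4 falls in the first comparison and 5 to 9 in the last. Fitting only the arrays of days 4 and 21 gave 5 falls. Rises in the last comparison ranged from 10 to 15 with each array left out, and from 11 to 17 under the other alternatives. With the replicate number as a block, 16 carriers rose and 4 fell, 9 rose and 16 fell, and 14 rose and 6 fell in the 3 comparisons. The numbers are not known to pair arrays: deviations of same-numbered arrays correlated at -0.05 to 0.26, others at -0.18 to 0.07. Dim signals limit what can be called: 48 carriers were above background on no day.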

Other observations

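Genes beside the carriers in RefSeq order differed in whether they moved with them. Cdkn1c, beside Slc22a18 in an imprinted cluster, changed by 0.98 and -0.07 on the log2 scale in the 2 intervals, with only the former called, and Slc22a18 by 0.57 and -0.09, likewise. On the other side of Slc22a18, Phlda2 changed by 0.37 and -2.04, with only the latter called. Mab21l3, beside Slc22a15, rose by 2.77 in the second interval, where Slc22a15 rose by 0.84. On the other side of Slc22a15, Nhlh2 changed by 0.12 and -0.04 and was not called. Others moved apart. Slco6c1, next to Slco4c1 among protein-coding genes, changed by 0.00 and -0.29 and was below background on all days, while Slco4c1 changed by 3.57 and -2.93. Nanog, a pluripotency factor next to Slc2a3, changed by -1.04 and -1.45 and was called in both intervals, while Slc2a3 changed by 1.12 and -1.60. Rab6b, which lies beside Slco2a1, was called in both intervals with changes of 2.32 and -1.15, while Slco2a1 changed by 0.95 and 2.97. These pairs were chosen after their values were seen.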
